A study of Rattus norvegicus with 21 samples.

Results

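Cell cycle and DNA replication genes were followed in rat pancreatic islets, the small groups of endocrine cells that release insulin and glucagon. The set was chosen by gene name and holds 37 genes, 19 of DNA replication (S phase) and 18 of mitosis. Of these, 35 (18 and 17) have a row among the 28914 genes of the deposited count table. E2f1 and Ccnb2 were not analysed here. Islet RNA came from Lewis rats labelled 4-5 weeks that had either a sham operation (sham, n = 10) or a 90% partial pancreatectomy (PX, n = 11), each followed for 4 weeks. The study concerns high blood glucose in islets left after most of the pancreas is removed. The labels give for every animal the average BG before sacrifice, without a unit, at 82 to 104 in sham and 101 to 174 in PX. No genetic change or drug is listed for either group. Libraries are named by group and animal number (PX 65), and apart from that number nothing says that the samples are separate animals, so p-values measure the spread between these samples. The 1 operation stands for both tissue loss and raised BG, and these cannot be told apart between the groups.

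A dividing cell copies its DNA once and then separates the copies. MCM proteins, loaded before S phase by Cdc6 and by Cdt1, which Gmnn holds back, form the helicase that in S phase opens DNA. Pcna clamps the polymerases to it, and ribonucleotide reductase (Rrm1, Rrm2), Tk1 and Tyms supply nucleotides. Cyclin E with Cdk2 drives entry into S phase, and cyclins A and B with Cdk1 drive mitosis, in which kinesins, Aurora kinases and the Bub1 and Bub1b checkpoint proteins sort the chromosomes. Replication genes are classically controlled by E2F factors, and mitosis genes by the MuvB complex with B-Myb and Foxm1 through CHR elements and CCAAT boxes. Adult beta cells divide rarely, and partial pancreatectomy in rodents is a classic setting in which they divide more. In RNA of whole islets, more dividing cells and more RNA per dividing cell cannot be told apart, nor can the kind of cell that divides.

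To show the control elements of each class, promoters of 4 mitosis and 3 replication members are printed, chosen because the called or uncalled changes of these genes are described below. Sequences are RefSeq's for rat assembly GRCr8, 5′ to 3′ in the gene's direction, and cover the 150 bases before the annotated start. Capitals mark matches on either strand to E2F motifs (either TTCCCGC or the variant TTGGCGC), CHR motifs (either TTTGAA or the variant TTTAAA) or CCAAT, which reads ATTGG where it lies on the other strand. They were taken from Cdk1 at chr20:19265143-19265292 on the plus strand, Ccnb1 at chr2:33655226-33655375 on the minus strand, Mki67 at chr1:199952594-199952743 on the minus strand, Kif11 at chr1:244536717-244536866 on the plus strand, Mcm5 at chr19:13488663-13488812 on the plus strand, Mcm6 at chr13:42404353-42404502 on the minus strand and Mcm7 at chr12:22163179-22163328 on the minus strand.
Cdk1: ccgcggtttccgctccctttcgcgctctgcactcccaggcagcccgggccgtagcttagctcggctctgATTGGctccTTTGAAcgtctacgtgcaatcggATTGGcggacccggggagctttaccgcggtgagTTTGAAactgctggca
Ccnb1: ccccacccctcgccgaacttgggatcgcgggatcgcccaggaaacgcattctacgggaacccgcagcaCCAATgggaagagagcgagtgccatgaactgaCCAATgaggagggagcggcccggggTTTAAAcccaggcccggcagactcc
Mki67: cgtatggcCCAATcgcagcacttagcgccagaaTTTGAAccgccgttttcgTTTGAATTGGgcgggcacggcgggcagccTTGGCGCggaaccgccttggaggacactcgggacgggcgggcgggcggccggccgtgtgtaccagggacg
Kif11: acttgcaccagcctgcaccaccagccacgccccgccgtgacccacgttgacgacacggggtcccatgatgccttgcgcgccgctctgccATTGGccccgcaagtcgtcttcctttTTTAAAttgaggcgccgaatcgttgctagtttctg
Mcm5: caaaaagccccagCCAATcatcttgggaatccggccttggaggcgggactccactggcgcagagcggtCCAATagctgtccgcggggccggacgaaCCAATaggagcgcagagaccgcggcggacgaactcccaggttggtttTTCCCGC
Mcm6: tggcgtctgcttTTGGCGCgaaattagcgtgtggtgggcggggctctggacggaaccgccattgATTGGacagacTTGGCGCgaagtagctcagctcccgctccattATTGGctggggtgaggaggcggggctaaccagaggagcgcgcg
Mcm7: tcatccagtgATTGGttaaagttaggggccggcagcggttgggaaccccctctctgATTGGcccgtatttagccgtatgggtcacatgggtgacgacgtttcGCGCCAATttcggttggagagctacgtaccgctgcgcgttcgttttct
Over windows from 250 bases before to 50 after the start, 26 members had 1 RefSeq promoter entry, 13 in each class. Uhrf1 had more than 1 and was left out, and Aurkb, Ccna2, Ccne2, Cdc6, Foxm1, Mcm4, Rrm2 and Ube2c had none. A CHR motif was present in 13 of 13 mitosis members and in 2 of 13 replication members (Ccne1 and Mcm2), against 28.3% of 33469 promoters. An E2F motif was present in 9 of 13 replication members and in 2 of 13 mitosis members (Cdk1 and Mki67), against 6.26% of all promoters. Pcna, Tk1, Mcm2 and Ccne1 were the replication members with no E2F match in this window. CCAAT was found in 8 replication and 10 mitosis members, against 37.5% of all promoters. TTTAAA is its own reverse complement, a CHR and a CCAAT match of Mki67 share a base, and an E2F and a CCAAT match of Mcm7 overlap. In the window from 200 bases before to the start, E2F matches fell to 6 of 13 replication members, and CHR matches were in 12 of 13 mitosis members. A match describes letters only and does not show that a factor binds.

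Libraries held 4001908 to 13187959 counted reads. Endocrine genes took 4.03% to 20.3% of them and acinar digestive-enzyme genes 0.595% to 44.9%, the latter highest in PX 65. Values below are TMM-scaled CPM, counts relative to a library size corrected by TMM factors, which set libraries of different composition on 1 scale. Folds, standard errors and p-values come from edgeR's quasi-likelihood test of PX against sham, adjusted by Benjamini-Hochberg over all 13136 genes that passed a filter on low counts. A gene is called higher or lower at an adjusted p under 0.05. Among all genes, 14.9% were called higher and 16.2% lower, with a median log2 fold change of -0.04. Of the members, 33 passed the filter (18 replication, 15 mitosis), and Birc5 and Ube2c did not.

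Pcna was the most abundant member by a wide margin. On the scale of CPM per kilobase of gene length, Pcna had a median of 67.1 in sham and 95.1 in PX, and 3.28% of tested genes lay above it in PX. Cdk1 and Rrm1 followed in PX at 12.4 and 12.0 per kilobase, with ranges of 7.32 to 17.1 and 9.52 to 19.0 that overlapped, so their order is not fixed. The other members had PX medians of 0.511 (Ube2c) to 9.13 (Mcm7), and the median over all tested genes was 7.86, which Tyms, Mcm7, Rrm1, Cdk1 and Pcna exceeded. Cdc6, the replication member with the highest fold change, had 4 to 23 reads per library, and Mki67 had 64 to 245. The summed level of the members, of which Pcna is the largest part, was 159 ± 23.9 per kilobase (SD, n = 10) in sham and 223 ± 35.9 (SD, n = 11) in PX. With library totals only, in place of TMM, it was 178 ± 37.8 and 208 ± 55.8.

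Replication members rose in part. Of 18 tested, 9 were called higher and 0 lower (14.9% of all genes were called higher), with a median log2 fold change of 0.33, and 16 had a fold change above 0. The genes that rose span licensing (Cdc6, Gmnn), the helicase (Mcm3, Mcm5), the clamp (Pcna), nucleotide supply (Tk1, Rrm1), cyclin E1 (Ccne1) and Uhrf1, which brings maintenance methylation to copied DNA. Macrophage markers rose in the same libraries: 14 of 14 tested were called higher (median log2 fold change 2.73), their summed CPM was 50.7 to 152 in sham and 228 to 2029 in PX. Of the defining macrophage markers, Csf1r was at 10.6 to 31.1 CPM in sham and 31.3 to 172 in PX, and Lyz2 at 7.22 to 33.9 and 71.7 to 1188. Mesenchymal markers were called higher in 11 of 12, with summed CPM of 276 to 885 in sham and 728 to 2877 in PX. The part of these cells in the result was not tested.

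Cdc6, which loads the MCM helicase, ranged from 0.506 to 1.53 CPM in sham (median 0.920) and from 1.30 to 4.65 in PX (median 2.58). Its 10 highest PX libraries lay above every sham library, and PX 44 alone lay within the sham range; 1.55% of tested genes separated the groups fully with PX higher, 0.145% with PX lower, and no member did. The log2 fold change was 1.43 ± 0.24 (SE; edgeR adjusted p = 0.00012). Mcm3 ranged from 3.17 to 10.0 CPM in sham (median 3.85) and from 7.42 to 17.5 in PX (median 10.2). Sham 46 alone made the overlap, since the next sham library was at 5.65 CPM. Its log2 fold change was 1.20 ± 0.21 (edgeR adjusted p = 0.000127), and 1.45 without sham 46. Mcm5 was at 7.18 to 17.9 CPM in sham (median 8.09) and 10.2 to 22.2 in PX (median 17.4). The high sham value was again sham 46, and sham 74 (10.19 CPM) also lay just above PX 66 (10.16 CPM). The log2 fold change of Mcm5 was 0.81 ± 0.17 (edgeR adjusted p = 0.000763), or 1.03 without sham 46.

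Tk1, the salvage kinase for thymidine, ranged from 1.68 to 7.96 CPM in sham (median 3.72) and from 4.86 to 12.3 in PX (median 8.73). All 11 PX libraries were above the sham median and 7 were above every sham library, with a log2 fold change of 1.07 ± 0.21 (edgeR adjusted p = 0.000497). Uhrf1 was at 2.87 to 7.09 CPM in sham (median 3.72) and 5.79 to 12.9 in PX (median 7.32). Its 11 PX libraries were above the sham median too, with a log2 fold change of 0.91 ± 0.19 (edgeR adjusted p = 0.000881). Pcna was at 61.9 to 110 CPM in sham (median 77.8) and 70.6 to 142 in PX (median 110). The groups overlapped more for Pcna, with 6 PX libraries above every sham library, and the log2 fold change was 0.48 ± 0.12 (edgeR adjusted p = 0.00365). The 3 further calls were Gmnn (log2 fold change 0.74, edgeR adjusted p = 0.0172), Ccne1 (0.55, 0.0283) and Rrm1 (0.33, 0.0311). Ccne1 and Rrm1 were close to the threshold, and their calls were lost on leaving out 1 library in 2 and 4 of 21 cases.

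**Figure D1:**
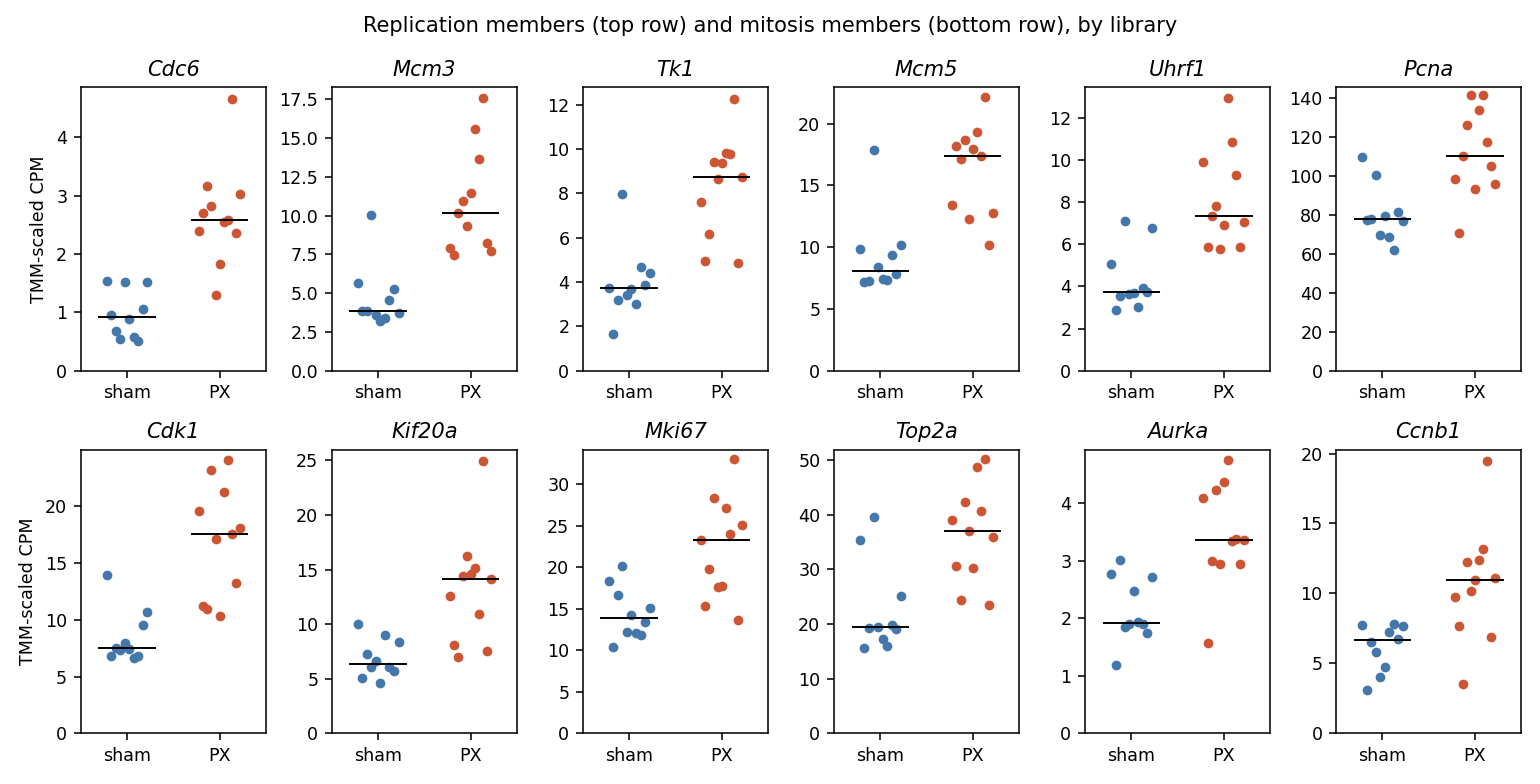
Normalised expression (TMM-scaled CPM, linear axis from 0) of the 6 replication members (top) and 6 mitosis members (bottom) with the smallest p, 1 point per library, 10 sham and 11 PX; the bar is the group median. Medians are higher in PX for all 12 genes, sham 46 is the high sham point for Mcm3 and Mcm5, and no gene separates the groups fully.

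The other 9 replication members were not called. Mcm2, a helicase subunit often used as a marker of cells licensed to divide, was at 15.3 to 31.6 CPM in sham (median 20.3) and 19.2 to 38.3 in PX (median 22.8). Its log2 fold change was 0.23 ± 0.14 (edgeR adjusted p = 0.203), 1 PX library was above every sham library, and it was called at 0.37 without sham 46 (edgeR adjusted p = 0.0234). Mcm4, Mcm6 and Mcm7 had log2 fold changes of 0.23, 0.21 and 0.13, Cdk2 of 0.34 and Tyms of 0.10. Cdt1 (-0.01 ± 0.40) and Rrm2 (0.19 ± 0.52) had wide errors at 2 to 44 and 0 to 31 reads per library. Ccne2, the other cyclin E, had a log2 fold change of -0.32 ± 0.27 (edgeR adjusted p = 0.377), with 2 of 11 PX libraries above the sham median. Ccne2 shares 316 bases of exon with Ints8 on the other strand, and no source used here gives the strand setting of the counting.

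The 6 MCM genes encode subunits of 1 ring, and 2 of them, Mcm3 and Mcm5, were called. The log2 CPM of Mcm3 minus the mean of the other 5 subunits was -1.80 ± 0.36 (SD, n = 10) in sham and -0.92 ± 0.24 (SD, n = 11) in PX, and 11 of 11 PX libraries were above the sham median. For Mcm5 this difference was -0.64 ± 0.25 in sham and -0.21 ± 0.25 in PX, also with 11 of 11 above the sham median. Without sham 46, PX exceeded sham in these differences by 0.95 and 0.49. Ccne1 minus Ccne2 was -1.34 ± 0.70 in sham and -0.38 ± 0.75 in PX. These contrasts were picked after the fold changes of the same genes had been seen, so they are descriptions and carry no test. In the promoters printed above, Mcm5, Mcm6 and Mcm7 each hold E2F and CCAAT matches, and of these Mcm5 was called.

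Mitosis members rose in most cases. Of 15 tested, 10 were called higher and 0 lower (14.9% of all genes were called higher), with a median log2 fold change of 0.62, and 14 were above 0. The calls include the kinase Cdk1 and its cyclin Ccnb1, the proliferation marker Mki67, the topoisomerase Top2a, the kinesins Kif11 and Kif20a, both Aurora kinases, the kinetochore protein Cenpf and the checkpoint kinase Bub1. The mitosis median exceeded the replication median by 0.29, a description without a test. Per library, the mean log2 CPM of mitosis minus replication members differed less between the groups. It was -0.73 ± 0.20 (SD, n = 10) in sham and -0.61 ± 0.20 (SD, n = 11) in PX. The ranges overlapped, at -1.01 to -0.44 in sham and -1.12 to -0.39 in PX. The macrophage and mesenchymal markers given above rose in these libraries too, and their part in the mitosis result was not tested.

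The number of members called varied with the scaling. With library totals only in place of TMM, which moved the median of all genes to -0.28 and called 990 genes higher (7.54%) and 2227 lower, 4 replication and 2 mitosis members were called higher. Their class medians were then 0.36 and 0.63 above the median of all genes, against 0.37 and 0.66 with TMM, and the uncalled Mcm2, Mcm4, Mcm6 and Mcm7 had log2 fold changes of -0.05, -0.02, -0.06 and -0.13. With DESeq2's size factors 2185 genes (16.6%) were higher and 1646 lower, and 9 replication and 12 mitosis members were called higher. In the authors' deposited table of this comparison, 9 replication and 10 mitosis members are higher at an adjusted p under 0.05 and 0 are lower, and 18 of the 19 members called here are among them. The authors' deposited table has 1845 of its 13140 genes higher and 2228 lower at that threshold.

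Cdk1, the kinase that starts mitosis, was at 6.59 to 14 CPM in sham (median 7.48) and 10.3 to 24.1 in PX (median 17.5). All 11 PX libraries were above the sham median and 7 above every sham library, with a log2 fold change of 1.0 ± 0.17 (SE; edgeR adjusted p = 0.000137). Kif20a, a kinesin of cell division's last step, was at 4.59 to 10.0 CPM in sham (median 6.38) and 6.99 to 24.9 in PX (median 14.1), with 8 PX libraries above every sham library. Its log2 fold change was 0.94 ± 0.20 (edgeR adjusted p = 0.000922), and it shares 159 bases of exon with Cdc23 on the other strand. Mki67, present in dividing cells of any type, was at 10.4 to 20.2 CPM in sham (median 13.8) and 13.7 to 33.0 in PX (median 23.3). For Mki67, 6 PX libraries were above every sham library, PX 66 was below the sham median, and the log2 fold change was 0.62 ± 0.15 (edgeR adjusted p = 0.00336).

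Top2a, which untangles copied chromosomes, was at 15.7 to 39.5 CPM in sham (median 19.4) and 23.4 to 50.1 in PX (median 37). The highest sham library was sham 46, above 7 PX libraries, and the log2 fold change was 0.69 ± 0.17 (edgeR adjusted p = 0.00437). Aurka, the spindle-pole Aurora kinase, was at 1.20 to 3.02 CPM in sham (median 1.92) and 1.58 to 4.76 in PX (median 3.36), with 7 PX libraries above every sham library. Its log2 fold change was 0.70 ± 0.19 (edgeR adjusted p = 0.00688). Ccnb1, the B cyclin, was at 3.11 to 7.84 CPM in sham (median 6.66) and 3.50 to 19.4 in PX (median 10.9), with PX 38 the low PX library. Its log2 fold change was 0.79 ± 0.22 (edgeR adjusted p = 0.00763). Kif11 (log2 fold change 0.62, edgeR adjusted p = 0.012), Cenpf (0.54, 0.0238), Aurkb (0.44, 0.0246) and Bub1 (0.55, 0.0435) completed the calls. Bub1 lost its call in 10 of 21 fits that left out 1 library.

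Among mitosis members not called, Cdc20, which activates the anaphase ubiquitin ligase, had a log2 fold change of 0.62 ± 0.25 (edgeR adjusted p = 0.0558), with 2.39 to 6.45 CPM in sham (median 3.38) and 2.51 to 12.0 in PX (median 5.67). Bub1b (0.69, edgeR adjusted p = 0.0579), Ccna2 (0.77, 0.0681) and Plk1 (0.44, 0.305) had positive values. Foxm1, a transcription factor of mitosis genes, had a log2 fold change of -0.36 ± 0.17 (edgeR adjusted p = 0.105). It was at 3.45 to 4.87 CPM in sham (median 4.18) and 1.77 to 5.71 in PX (median 3.17), and only PX 70 exceeded the sham median. Without PX 70, Foxm1 was called lower at -0.46 (edgeR adjusted p = 0.0232). Birc5, a subunit of the chromosomal passenger complex, was at 0 to 1.63 CPM in sham (median 0.631) and 0.692 to 2.75 in PX (median 1.68). Ube2c, the ubiquitin carrier of the same ligase that Cdc20 activates, was at 0.190 to 1.70 CPM in sham (median 0.732) and 0.333 to 2.12 in PX (median 1.48). In a fit without the low-count filter their log2 fold changes were 1.15 (edgeR adjusted p = 0.0132) and 0.91 (0.042), and 12.9% of all genes in that fit were called higher.

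**Figure D2:**
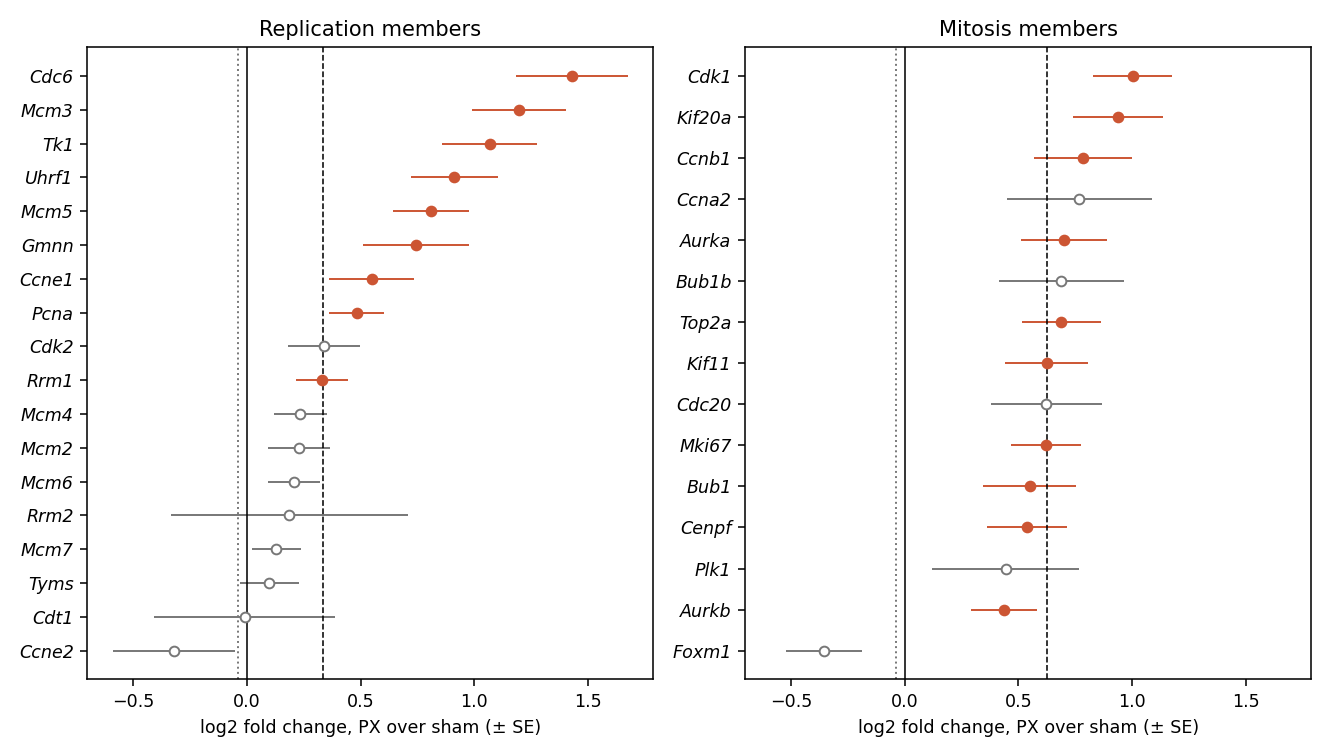
Log2 fold changes of PX over sham for the 18 replication (left) and 15 mitosis members (right) tested, with SE bars; filled points have an edgeR adjusted p under 0.05, the dashed line is the class median (0.33 and 0.62) and the dotted line the median of all tested genes (-0.04). Cdc6 has the highest value, and Ccne2 and Foxm1 the lowest of their classes.

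Of 33 other replication genes tested, 6 were called higher and 2 lower (14.9% and 16.2% of all genes), and their median log2 fold change was 0.10. With library totals only, 0 were higher and the median was -0.18. Leaving out 1 library at a time gave 2 to 8 higher. There were 2 without sham 50, PX 57 or PX 65, and 3 without sham 22, sham 48, sham 73, PX 58 or PX 62. The other fits gave 4 to 8. In the fits with 2 or 3 higher, 13.1% to 15.1% of all genes were called higher. Timeless, a fork-protection protein, had 0.67 (edgeR adjusted p = 0.019) and Gins4, a helicase subunit, 0.70 (0.0269). The 2 lower calls were Rfc1, the large clamp-loader subunit (-0.49, edgeR adjusted p = 0.000508), and Dut, a dUTPase (-0.29, 0.0487). Of 38 other mitosis genes tested, 22 were called higher and 0 lower (14.9% and 16.2% of all genes), with a median of 0.61, and 3 were higher with library totals only (7.54% of all genes). Kif23, a midzone kinesin, had 1.14 (edgeR adjusted p = 6.11e-05), the centromere kinesin Cenpe 0.98 (0.000212) and the spindle assembly factor Tpx2 0.78 (0.000251). Of 15 E2F and MuvB regulators tested, 0 were called higher and 2 lower (14.9% and 16.2% of all genes): Tfdp2, a dimer partner of E2F (-0.73, edgeR adjusted p = 0.000683), and Rb1, the retinoblastoma protein that restrains E2F (-0.51, 0.00937). Mybl1 had -0.58 (0.0634). These lists were chosen with earlier results of these data known.

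The rise was not even over PX animals. The mean log2 CPM of the replication members was 2.46 to 3.22 in sham (median 2.68) and 2.95 to 3.47 in PX (median 3.29). PX 37, PX 66, PX 57 and PX 44 lay within the sham range, and sham 46 was the highest sham library. The mean of the mitosis members was 1.59 to 2.44 in sham (median 2.02) and 2.13 to 3.02 in PX (median 2.72). PX 38, PX 37, PX 66 and PX 57 lay within the sham range, whose top was sham 74. PX 38 thus had mitosis members at 2.13, the lowest of PX, and replication members at 3.25, close to the PX median. Sham 46 had the highest sham value for 9 of 18 replication members and 4 of 17 mitosis members. PX 65 had the highest PX value for 7 of 18 and 7 of 17, and the top PX mean of replication members (3.47). These values rest on its low TMM factor (0.359). As a share of counted reads its replication members were the lowest of PX, at 0.0146%, against 0.0219% to 0.0350% in sham. Within PX the median pairwise correlation of members across 11 libraries was 0.39 among mitosis genes, 0.24 among replication genes and 0.27 between the classes, and all members were scaled by the same factors.

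**Figure D3:**
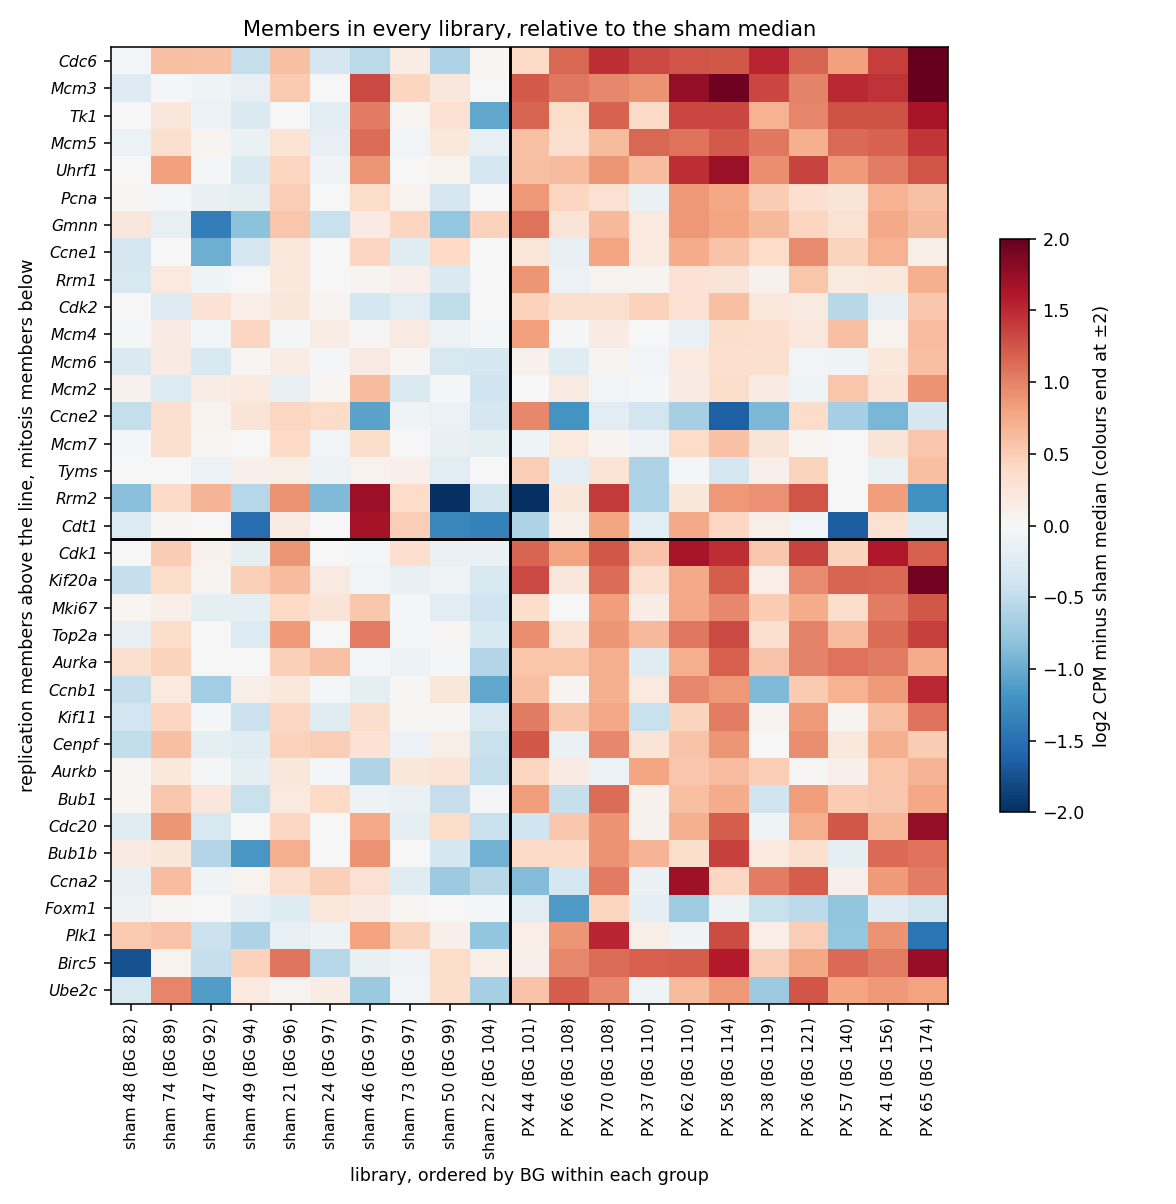
Log2 CPM of the 35 members in each library minus that gene's sham median (colour, ending at ±2), with libraries ordered by BG within sham (left) and PX (right) and genes ordered by p within each class. PX columns are mostly red for both classes, Ccne2 and Foxm1 are mostly blue in PX, and sham 46 is red for Mcm3, Mcm5, Tk1, Top2a, Rrm2 and Cdt1.

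Each library's macrophage level was set beside its members. The mean log2 CPM of 14 macrophage markers was 1.45 to 2.81 in sham and 3.15 to 5.99 in PX, with no overlap. The highest sham library for these markers was sham 46 and the lowest PX library was PX 44, which stood next to each other for replication members as well (3.22 and 3.16). For mitosis members they were at 2.21 and 2.50, with other libraries of both groups between them. Of PX libraries, PX 36, PX 41, PX 58, PX 62 and PX 65 had the highest macrophage means (4.53 to 5.99). Their mitosis means were 2.72 to 3.02. In PX 37, PX 38, PX 44, PX 57 and PX 66 the macrophage means were 3.15 to 3.87 and the mitosis means 2.13 to 2.50. PX 70 differed from both, with a macrophage mean of 3.56, among the lowest, and a mitosis mean of 2.91, among the highest. With the macrophage mean as a covariate, 0 of 18 replication and 0 of 15 mitosis members were called, their median log2 fold changes were 0.08 and 0.18, and 5 of 13136 genes were called in all (0.0305% higher). That covariate has an R-squared of 0.776 with the group, so group and macrophage level can hardly be told apart in these samples. Markers of T, B and NK cells summed to 7.56 to 17.7 CPM in sham and 14.4 to 75.4 in PX, with 1 of 12 passing the filter (Cd4, also found on macrophages) and Cd3e at a median of 0.103 and 0.634 CPM. Endothelial markers were called higher in 6 of 9 and duct markers in 4 of 7 (14.9% of all genes). Of 15 endocrine markers 1 was called higher and 4 lower (14.9% and 16.2% of all genes). Acinar markers were called higher in 3 of 20, near the share of all genes (14.9%), but 20 of 20 had a fold change above 0. Their median log2 fold change was 1.28, and they varied widely between libraries. They took 10.1 ± 8.78% of counted reads in sham (SD, n = 10) and 18.1 ± 11.1% in PX (SD, n = 11). With the acinar mean as a covariate 6 mitosis members were called higher (10.2% of all genes). The part of these cells in the members' change was not tested.

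**Figure D4:**
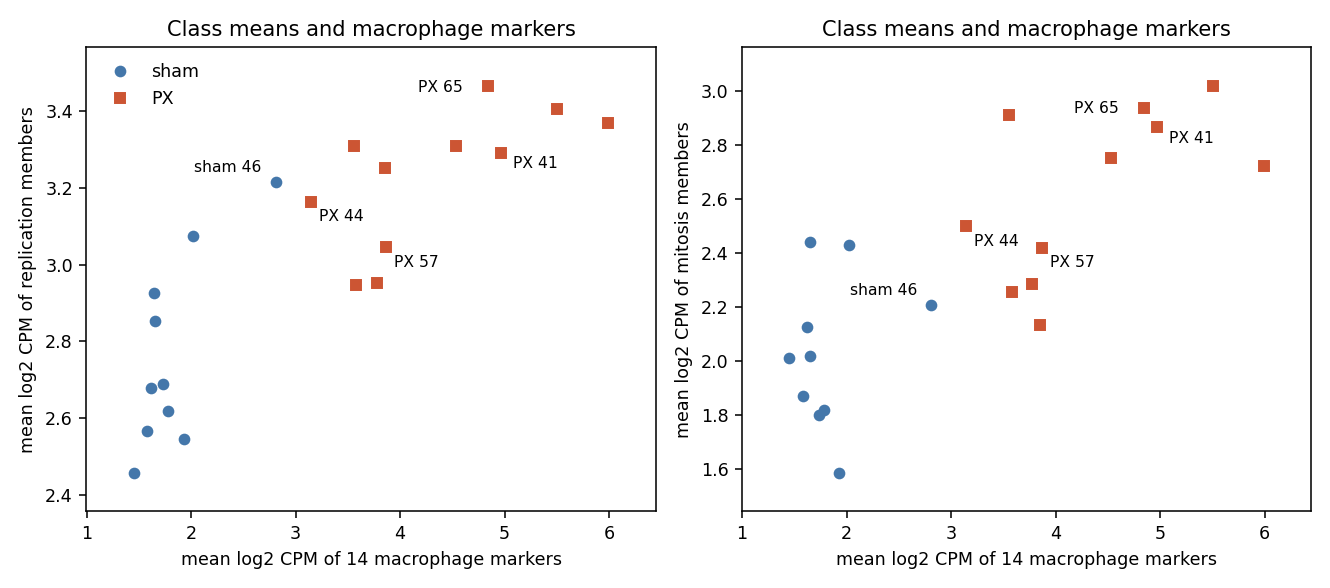
Mean log2 CPM of the 18 replication (left) and 17 mitosis members (right) against the mean log2 CPM of 14 macrophage markers, 1 point per library (circles sham, squares PX). The groups do not overlap on the horizontal axis (sham up to 2.81, PX from 3.15) and overlap on the vertical axis.

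Within PX the members had no slope on BG that passed the test. The slope is the change in log2 expression per 10 units of BG, fitted over 11 PX libraries. Of 11196 genes tested 0 were called (0% in either direction), although 1439 had an unadjusted p under 0.05, and DESeq2 called 17 genes (0.0982% positive, 0.0536% negative) and limma voom 18 (0.0536% and 0.107%), with 0 members in each. The filter in this fit kept 25 members, 14 replication and 11 mitosis. Their median slopes were 0.03 and 0.05, with 11 of 14 and 10 of 11 above 0. Without PX 41 and PX 65, the libraries of highest BG, the medians were -0.01 and -0.06, over 16 and 13 members kept. The median of all genes was then -0.015. Relative to it the class medians were 0.001 and -0.042, so only the mitosis median turned sign on that measure. Acinar markers had a median slope of 0.26 in the fit over 11 PX libraries, with 0 of 20 called.

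Mcm2 had the smallest p, with a slope of 0.10 ± 0.03 (SE; p = 0.00992, edgeR adjusted p = 0.347). Its 38.3 CPM in PX 65, the library with the lowest TMM factor (0.359), was the top of all libraries. Cdc20 had a slope of 0.16 ± 0.07 (p = 0.0278, edgeR adjusted p = 0.356), Kif20a 0.12 ± 0.05 (p = 0.0496, adjusted 0.388) and Mki67 0.09 ± 0.05 (p = 0.072, adjusted 0.422). Among replication members, Mcm5 (0.08, edgeR adjusted p = 0.426) and Cdc6 (0.10, 0.467) followed. With library totals only, the slopes of Mcm2, Mcm5, Cdc6 and Mki67 were -0.010, -0.017, -0.020 and -0.006. Those of Cdc20 and Kif20a kept their sign. Cdk1 and Pcna, both called between the groups, had slopes of 0.01 ± 0.06 and -0.01 ± 0.04. The 10 members outside this fit had slopes of -0.19 (Plk1) to 0.09 (Birc5) without the filter. Within sham, where BG spans 82 to 104, 0 of 11532 genes were called (77 at p under 0.05), and the difference between the slopes of PX and sham was called for 0 of 13136 genes (145 at p under 0.05). Both counts at p under 0.05 are fewer than the 1 in 20 that chance gives. Errors in sham were wide (for Mcm2 an SE of 0.19, against 0.03 in PX), so these 0 calls say little about BG.

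**Figure D5:**
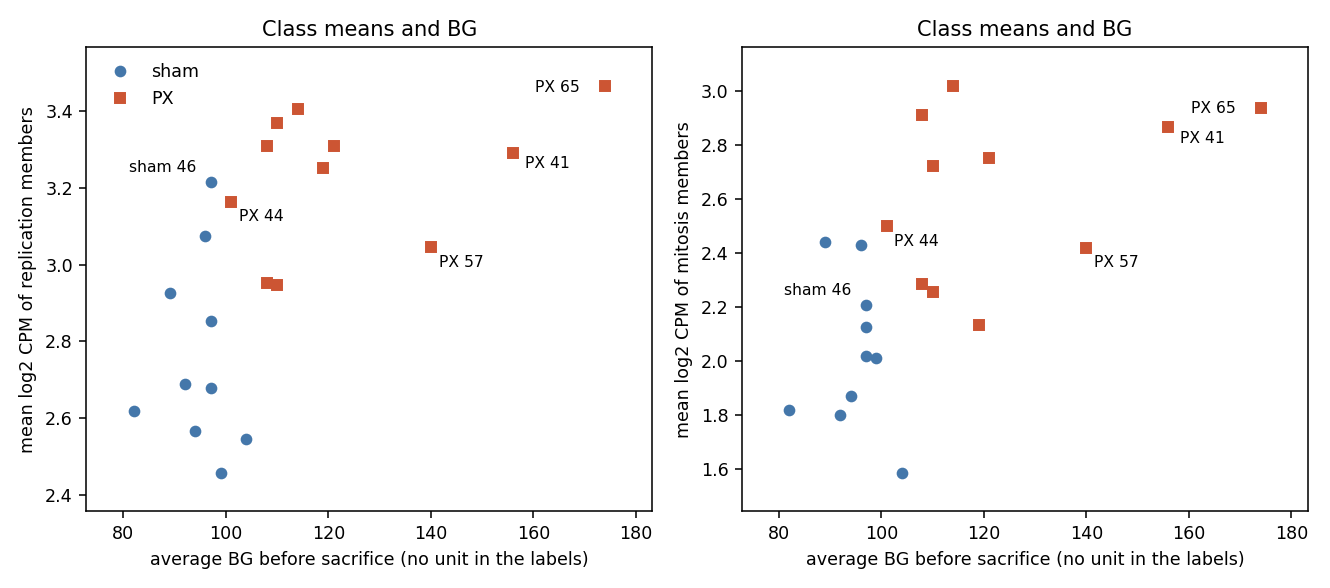
Mean log2 CPM of the replication (left) and mitosis members (right) against each animal's average BG (no unit in the labels), circles sham and squares PX. The 8 PX animals at BG 121 or less span nearly the whole PX range of both classes, while PX 57, PX 41 and PX 65 lie at 140, 156 and 174.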

How the data were processed

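Islet polyadenylated RNA of 10 sham and 11 PX rats was sequenced from a directional kit, per the labels' protocols. FastQC, Subread, featureCounts and limma were used, per the submitters' processing notes. No source used here gives their versions, the strand setting or the genome build. Raw read counts per gene name were deposited, unnormalised and in featureCounts layout, per the file headers, and gene length in bases is deposited beside them. The authors' deposited table gives per gene a log2 fold change, a fold change as a linear ratio, a mean log2 expression and a p-value with its adjusted p, per the file headers.

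Counts were analysed with edgeR 4.0.16 in R 4.3.3 (TMM factors, filterByExpr with minimum count 10 and total 15, robust quasi-likelihood fits, two-sided tests, Benjamini-Hochberg at 0.05). Log2 CPM used a prior count of 2. The slope fit used the PX libraries only. Alternatives were DESeq2 1.42.0, voom with quality weights (limma 3.58.1), other scalings and filters, covariates, and leaving out libraries; leaving out PX 44, PX 65 and sham 46 together was chosen after seeing the data. On simulated counts of 13136 genes, 78% of changes of 1 on the log2 scale and 26% of changes of 0.5 were called, with 5.45% of calls false. The same check of the slope over 11196 genes recovered 70% of slopes of 0.25, with 1.75% of calls false. Slopes below 0.25 were not simulated, and the largest member slope within PX was 0.16 (Cdc20). The check therefore does not show whether slopes of the members' size could be called.

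Members, classes, pathway lists and marker lists were chosen with earlier results of these data known. Members described in full are the 6 of smallest p per class between groups, the 3 of smallest p per class on BG, and Mki67, Top2a, Mcm2, Pcna and Cdk1; up to 3 genes of smallest p are named per pathway list. Dut, the other lower call of its list, was named after its value was seen.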

Additional observations from a re-analysis of the deposited data

Results flagged for a closer look

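Of 39 sets of values compared over the 10 sham libraries, 4 were flagged for a library set apart from the rest. Chance gives about 1 in 20, or 1.95 sets, if the sets were independent, but they share libraries. In sham, the log2 CPM of Mcm3 was 3.36 in sham 46 and that of Mcm5 was 4.18 in the same library, each well above the next sham library. Sham 46 was also set apart by the mean log2 CPM of the macrophage markers, at 2.81. The log2 CPM of Mcm4 in sham 49 was 4.71, the highest of sham, with the next sham library at 4.46. Its gap over the range, 0.466, lay at the limit for a flag (0.466). The part of the macrophage level in the values of sham 46 was not tested.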

How the results depend on the processing

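With library totals only, replication and mitosis members called higher were 4 and 2, the replication median was 0.079, the slope medians on BG were -0.075 and -0.045, and 0 other replication and 3 other mitosis genes were called higher. With the macrophage mean as a covariate the members called higher were 0 and 0 with medians of 0.075 and 0.18, and with macrophage and mesenchymal means 0 and 0 with medians of 0.089 and 0.19; under either, the pathway lists had 0 calls. Under these covariates 4 called members turned sign without a call: Pcna (-0.0025 and -0.0065), Uhrf1 (-0.18 and -0.18), Mki67 (-0.17 and -0.17) and Top2a (-0.16 and -0.16). With BG as a covariate, where 5.17% of all genes were higher and 1.33% lower, 3 replication, 1 mitosis, 0 other replication and 4 other mitosis members were called higher, and 0 other replication genes and 1 regulator lower. With the acinar mean as a covariate, 6 mitosis members and 14 other mitosis genes were called higher, 0 other replication genes higher and 1 lower, and 1 regulator lower. Of all genes, 10.2% were then higher and 7.65% lower. Voom with quality weights, with 28.3% of all genes lower, called 1 replication (Ccne2), 1 mitosis (Foxm1) and 1 other mitosis gene lower, and 5 regulators. Without PX 44, PX 65 and sham 46, 10 replication and 12 mitosis members were higher and 1 replication member (Ccne2) and 1 other mitosis gene lower, with 1 regulator higher and 4 lower. That fit called 20.1% of all genes higher and 17.2% lower. Without PX 41 and PX 65 the slope medians were -0.014 and -0.057. Other replication genes called lower were 1 with DESeq2, its size factors, upper-quartile factors or totals without acinar and insulin genes, and 3 were called higher without the filter. With the 8 PX animals of BG 121 or less, 10 replication and 9 mitosis members were higher (12% of all genes), 0 other replication genes were higher and 1 regulator lower. The cause of these shifts was not tested.

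Leaving out 1 library at a time gave 7 to 10 replication and 9 to 12 mitosis members higher, 0 to 1 mitosis member lower, medians of 0.29 to 0.55 (the top without sham 46) and 0.56 to 0.75, a difference between the class medians of 0.19 to 0.37 and slope medians of 0.01 to 0.06 and 0.03 to 0.07. Other replication genes numbered 2 to 8 higher and 1 to 2 lower, other mitosis genes 19 to 28 higher, and regulators 0 to 1 higher and 2 to 4 lower. The share of all genes called higher ranged over these fits from 13.1% (without PX 65) to 19.8% (without sham 46). The share called lower ranged from 9.85% to 17.1%. Over all alternatives to the comparison of the groups, single members kept their call or lack of one in 1003 cases, lost a call in 86, gained one in 38, and in 8, named above, lost a call with a turned sign. No paired analysis was possible because no animal number is shared between the groups. Low counts limit Ube2c, Birc5, Rrm2, Ccna2 and Cdt1, the members with the fewest reads.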
